A study of Mus musculus with 3072 samples.

Results

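Histone genes were followed as 1 group of transcripts through 3 populations of mouse bone marrow cells. The group held every gene symbol of the deposited count matrix that begins with H1f, H2a, H2b, H3c, H3f, H4c or Hist1h to Hist4h and had a mean CPM (counts scaled to library total) of at least 1 over the 24 sums of cells made per mouse and population. Of 55291 symbols, 111 began this way and 46 reached the minimum. Of the other 65, 31 had no count in any sum. The 46 were 38 clustered genes and 8 replication-independent ones, of which H3f3a-ps2 is a pseudogene of H3f3a. Just inside the minimum lay H3f3a-ps2 at a mean of 1.04 CPM, and just outside it lay H3c11 at 0.983 CPM and H2ac5-ps at 0.979 CPM.

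The cells came from WT C57BL/6 mice that had been transplanted with barcoded stem cells, and all 8 mice shared this background. The groups compared were control mice (n = 4), sampled 32 weeks after transplantation, and platelet_depleted mice (n = 4), sampled 28 weeks after it. The agent of depletion is not given in the sources used here, and treatment, week and experiment code cannot be told apart. Single cells were sorted from bone marrow into wells under the names HSC, CFU and MkP and prepared by Smart-seq2 with a Nextera library, and the mouse code in each title was taken to mark the mouse.

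In all, 697 HSC, 647 CFU and 1324 MkP wells were kept, from 68792249 to 327869432 counts per sum. The summed CPM of 6 HSC markers was 494.6 to 1012 in HSC sums and at most 159.3 elsewhere. That of 7 megakaryocyte markers was 3394 to 5806 in MkP sums and at most 1805 elsewhere, and that of 8 erythroid markers was 6656 to 9653 in CFU sums and at most 648.5 elsewhere, so the cells labelled CFU carried an erythroid marker pattern. Off-type markers were uneven between sums. Neutrophil markers reached 3740 CPM in control CFU and 120.1 in depleted CFU, and 6.88 in control HSC and 410.5 in depleted HSC. Myeloid markers reached 1260.3 and 1079.9 CPM in control and depleted CFU, and mast and basophil markers 108 and 834 in control and depleted MkP. Their part in the results was not tested.

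Histones package DNA into nucleosomes, each a core of H2A, H2B, H3 and H4 sealed by a linker histone H1. Clustered histone genes are transcribed mainly while DNA is replicated. Most of their mRNAs end in a stem-loop, which stem-loop binding protein (Slbp) recognises, and carry no poly(A) tail. Replication-independent genes supply variants such as H3.3 (H3f3a and H3f3b), H2A.Z (H2az1 and H2az2), H2A.X (H2ax) and the linker H1.0 (H1f0), mainly through polyadenylated mRNAs. Smart-seq2 primes on poly(A), so its values for clustered genes weigh the adenylated part of their transcripts, and nothing in these files measures the rest. Many clustered genes are near-identical to others of the same histone family, so reads of 1 copy may have been counted at another or dropped. The value of any single clustered gene is uncertain to the degree that it has such copies.

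Promoter sequences are shown for H2ac8 and H2bc8, which share a stretch, and for H1f5 and H1f2, which share motifs. The 2 transcripts of each pair are set against each other below. H4c9 and H2az1 are added as a clustered and a variant gene that were both highest in CFU and share none of the marked motifs. They come from RefSeq on GRCm38.p6, run 5′ to 3′ on the strand named and end at the base before the annotated start. Capitals mark 4 motifs, each searched on both strands. These are the CCAAT box, which reads ATTGG on the other strand, the TATA box in the form TATAAA, the octamer ATTTGCAT that is typical of H2B promoters, and the H1 element AAACACA. H2ac8 (an H2A gene) and H2bc8 (an H2B gene) point away from each other across 180 bases from start to start. The 179 bases between the starts (chr13:23571221-23571399, plus strand) hold 2 CCAAT matches, 1 ATTTGCAT and 1 TATAAA. On the strand of H2bc8, TATAAA lies 43 and ATTTGCAT 59 bases before the H2bc8 start. Which of the 2 genes a match serves was not tested. The linker genes H1f5 (chr13:21780626-21780875, minus strand) and H1f2 (chr13:23738557-23738806, plus strand) both hold CCAAT and AAACACA, and TATAAA is in the H1f5 window alone. H4c9 (chr13:22041363-22041612, minus strand) holds TATAAA, 137 bases before the start, with no CCAAT. H2az1 (chr3:137864237-137864486, plus strand, overlapped by the gene Gm43403) holds 2 CCAAT matches and no TATAAA.
H2ac8 and H2bc8: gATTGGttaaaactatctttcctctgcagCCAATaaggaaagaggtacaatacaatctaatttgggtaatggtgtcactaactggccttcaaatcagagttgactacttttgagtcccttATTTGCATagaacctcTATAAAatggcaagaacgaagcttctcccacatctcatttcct
H1f5: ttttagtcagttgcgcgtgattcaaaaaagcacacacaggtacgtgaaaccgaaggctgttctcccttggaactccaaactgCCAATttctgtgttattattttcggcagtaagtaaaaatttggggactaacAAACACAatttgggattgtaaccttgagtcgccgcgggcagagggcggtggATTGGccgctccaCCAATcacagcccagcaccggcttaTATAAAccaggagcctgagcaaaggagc
H1f2: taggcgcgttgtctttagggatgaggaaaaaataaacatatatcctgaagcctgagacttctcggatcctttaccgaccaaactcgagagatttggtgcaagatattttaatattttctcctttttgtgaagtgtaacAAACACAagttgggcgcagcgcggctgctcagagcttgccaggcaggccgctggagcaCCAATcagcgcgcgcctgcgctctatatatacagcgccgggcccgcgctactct
H4c9: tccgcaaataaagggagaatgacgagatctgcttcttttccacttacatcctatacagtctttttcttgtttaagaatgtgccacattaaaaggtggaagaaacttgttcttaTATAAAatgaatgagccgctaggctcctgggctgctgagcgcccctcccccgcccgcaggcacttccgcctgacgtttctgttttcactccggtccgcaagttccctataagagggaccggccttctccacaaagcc
H2az1: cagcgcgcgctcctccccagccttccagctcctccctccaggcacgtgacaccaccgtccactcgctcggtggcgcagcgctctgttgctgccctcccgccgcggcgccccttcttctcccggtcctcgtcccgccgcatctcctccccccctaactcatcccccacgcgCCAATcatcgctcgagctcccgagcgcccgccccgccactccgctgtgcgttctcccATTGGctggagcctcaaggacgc

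The RefSeq promoter table, with windows from 250 bases before to 50 bases after each start, matched 28 of 38 clustered and 6 of 8 replication-independent members. CCAAT was found in 92.9% of the clustered windows and in 37.4% of all 32851 promoters, TATAAA in 60.7% and 13.6%, ATTTGCAT in 28.6% and 1.74%, and AAACACA in 17.9% and 7.18%. The octamer matches were in 5 of 8 clustered H2A and 3 of 7 clustered H2B windows, and AAACACA was in 4 of 5 clustered H1 windows. Among the 6 replication-independent windows, CCAAT was in 5 and each of the other elements in 1. Neighbouring H2A and H2B genes can share a window, so these matches are not independent, and a match is a stretch of letters and not a site shown to be bound.

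Replication-independent transcripts made up most histone signal. Their summed level, in CPM scaled by edgeR's TMM factors as are all levels of sums below, was 3526 ± 320 in HSC, 5586 ± 437 in CFU and 5079 ± 515 in MkP (SD, n = 8 mice). The 38 clustered genes together gave 356 ± 61.4 in HSC, 473 ± 86.6 in CFU and 569 ± 107 in MkP. Per kilobase of annotated exon, the mean level over all sums was highest for H2az1 (693 CPM per kb) and H3f3b (673), followed by H3f3a (255) and H2az2 (112). H2ac8 (86.7), H4c9 (76.6), H2bc8 (59.8) and H1f2 (47.3) led the clustered genes on this length scale. Fewer cells with a transcript and less RNA per cell cannot be told apart in such sums.

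The clustered families followed different orders. Clustered H2A summed to 84.7 ± 12.4 CPM in HSC, 155 ± 56.9 in CFU and 171 ± 49.98 in MkP. Clustered H4 was highest in CFU, at 129 ± 18.3 CPM against 76.7 ± 13.98 in MkP and 33.8 ± 7.11 in HSC, and the 3 ranges did not overlap except that the highest MkP sum (92.1) passed the lowest CFU sum (91.6). Clustered H2B was highest in MkP, at 153 ± 24.9 CPM against 95.5 ± 12.3 in HSC and 81.3 ± 12.8 in CFU, with all 8 MkP sums above all HSC and CFU sums. Clustered H1 was 125 ± 40.03 CPM in HSC, 82.4 ± 25.5 in CFU and 134 ± 33.8 in MkP, and the ranges overlapped. Clustered H3 was the lowest family in each population, at 17.9 ± 11.7 CPM in HSC, 25.1 ± 6.77 in CFU and 34.6 ± 13.95 in MkP, with overlapping ranges.

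**Figure D1:**
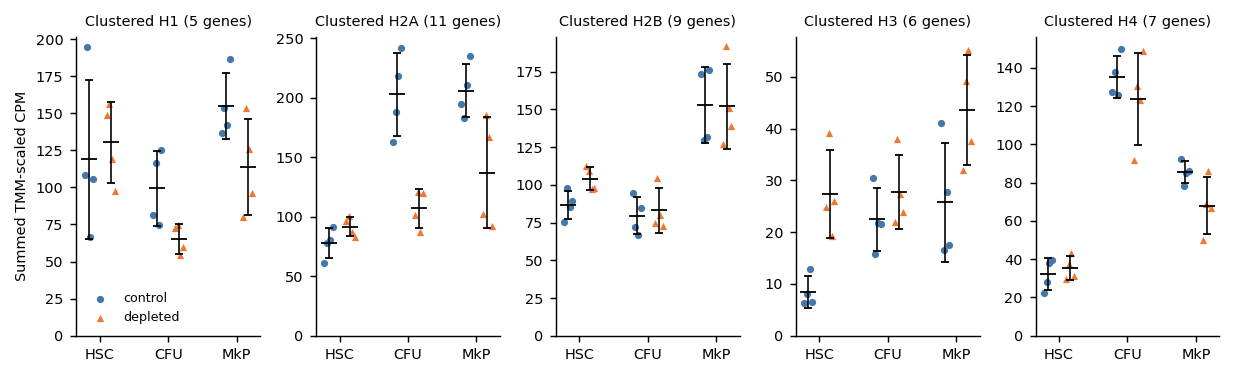
Summed TMM-scaled CPM (linear axes from 0) of the clustered members of each histone family, per mouse; circles are control mice, triangles depleted mice, bars mean ± SD over 4 mice. Clustered H4 is highest in CFU and clustered H2B in MkP, and the 4 control CFU sums of clustered H2A lie above the 4 depleted ones.

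Against HSC, both progenitor populations carried more of most clustered transcripts. In MkP, 26 of 38 clustered genes were higher than in HSC and 0 lower (adjusted p under 0.05, edgeR's quasi-likelihood test over 20852 genes), beside 16.8% of all genes called higher and 13.1% called lower. In CFU, 23 were higher and 4 lower, beside 27.7% and 35.8% of all genes. Their median log2 fold change was 1.70 in MkP and 1.37 in CFU over HSC, while the median over all genes was 0.01 and -0.27. These comparisons share the HSC sums. Members were chosen by their mean CPM over the sums of all populations, so a gene low in HSC could enter through CFU and MkP alone. Part of the counts and medians over HSC can follow from that choice, and their excess over all genes is uncertain to that degree. With each cell thinned to 20000 counts before summing, 15 and 10 clustered genes were called higher. The share of all genes called in that fit is not given, so a general loss of calls cannot be told apart. Of all calls in CFU over HSC, 43.6% were higher with TMM scaling and 30.8% without it.

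The genes with the largest rises were hardly present in HSC. Of those named here, H1f1, H2bc11, H2bc12, H2ac4, Hist1h2an, H3c8 and H2bc9 had mean HSC levels under 1 CPM. They reached the membership minimum through CFU and MkP, so part of their rise over HSC follows from that choice. H1f5, a linker histone gene, lay at 0.331, 2.01 and 3.52 CPM (lowest, median and highest of 8 mice) in HSC, at 9.40, 14.95 and 34.5 in CFU and at 8.36, 14.5 and 20.5 in MkP. No HSC sum reached a CFU or MkP sum, and the log2 fold change was 3.12 ± 0.38 (SE) in CFU (adjusted p = 1.26e-07, edgeR) and 2.83 ± 0.37 in MkP (adjusted p = 2.83e-06). H1f1, another linker gene, was likewise apart, at most 1.42 CPM in HSC and at least 2.37 in CFU and 2.897 in MkP, with log2 fold changes of 2.88 ± 0.50 and 3.22 ± 0.51. The H2B genes H2bc11 and H2bc12 rose by log2 fold changes of 3.24 and 3.04 in CFU and 2.93 and 2.97 in MkP. H2ac4 and Hist1h2an, both H2A genes, rose by 3.48 and 3.39 in CFU and 2.79 and 2.96 in MkP. H3c8 (H3) and H2bc9 (H2B) rose in CFU by 3.25 ± 0.72 and 3.24 ± 0.79, while in MkP their log2 fold changes over HSC were 1.70 (adjusted p = 0.0674, edgeR) and 1.92 (adjusted p = 0.0558, or 0.0368 in a paired fit with the mouse as a replicate block).

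Hist1h2ap (H2A) rose over HSC by 2.73 ± 0.34 in CFU and 2.35 ± 0.34 in MkP, and H3c4 (H3) by 1.24 ± 0.35 and 1.44 ± 0.35. H1f4, a linker gene, rose in MkP by 0.98 ± 0.34 (adjusted p = 0.0326, edgeR), and its CFU value was 0.49 ± 0.34. H4c4 (H4) was at 0.93 ± 0.44 in CFU over HSC, which passed the test with the mouse as a replicate block (adjusted p = 0.00429, edgeR) and not without it (0.0726). Its 8 CFU sums ran from 5.15 to 45.6 CPM and its HSC sums from 3.10 to 14.4, and these overlapped.

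H2ac8 and H4c9 carried the most clustered signal that rose in both. H2ac8, an H2A gene, lay at 9.96, 19.05 and 41.2 CPM in HSC, at 39.1, 74.1 and 146 in CFU and at 31.97, 69.7 and 128 in MkP. Only the highest HSC sum entered the CFU and MkP ranges. The log2 fold change over HSC was 1.99 ± 0.19 in CFU (adjusted p = 2.19e-09, edgeR) and 1.78 ± 0.19 in MkP (adjusted p = 1.71e-07). H4c9, an H4 gene, lay at 11.4, 20.3 and 27.4 CPM in HSC, at 76.9, 101 and 124 in CFU and at 34.9, 44.7 and 65.3 in MkP. All 3 populations were apart for H4c9, and its log2 fold change between CFU and MkP was 1.04 ± 0.16 (adjusted p = 1.04e-05, edgeR).

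A small set ran the other way in CFU. H2bc8, which shares its promoter stretch with H2ac8, lay at 14.1, 40.03 and 58.3 CPM in HSC, at 4.97, 8.001 and 18.5 in CFU and at 41.6, 58.8 and 105 in MkP. Its log2 fold change was -2.12 ± 0.25 in CFU over HSC (adjusted p = 7.11e-08, edgeR) and 0.68 ± 0.24 in MkP over HSC (adjusted p = 0.0319), no CFU sum reached an MkP sum, and the CFU and HSC ranges overlapped. H1f2, the most abundant clustered gene by CPM, lay at 50.4, 97.6 and 161 CPM in HSC, at 25.4, 35.6 and 50.4 in CFU and at 46.6, 81.1 and 107 in MkP. Its CFU value fell by 1.52 on the log2 scale against HSC (SE 0.21, adjusted p = 1.53e-06, edgeR), with ranges that met at 50.4 CPM, while MkP over HSC was -0.38 ± 0.21 (adjusted p = 0.194). Thus the linker genes H1f5 and H1f2, with CCAAT and AAACACA in both promoters, moved in opposite directions in CFU. The H2A genes H2ac6 and H2aw completed the 4 clustered genes that fell in CFU, by 2.52 ± 0.36 and 1.66 ± 0.23 on the log2 scale against HSC, and neither passed the test in MkP (0.10 and -0.26).

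Fewer clustered genes were called between CFU and MkP. In CFU over MkP, 1 clustered gene was higher (H4c9) and 9 lower, beside 22.3% and 31.1% of all genes, with a median of -0.19 against -0.25 over all genes. The 9 lower genes were H1f2, H1f3, H2ac6, H2aw, H2bc4, H2bc8, H3c1, H3c6 and H4c3. H2bc8 (-2.80 ± 0.25) and H2ac6 (-2.62 ± 0.36) had the largest falls. H2bc4, an H2B gene, lay at 30.3, 35.7 and 49.3 CPM in CFU and 44.4, 53.5 and 78.4 in MkP, a log2 fold change of -0.60 ± 0.13 (adjusted p = 0.000457, edgeR) with overlapping ranges. In a paired fit with the mouse as a replicate block, 10 clustered genes were called as well, now 2 of them higher in CFU, beside 11296 of all 20852 genes. Leaving out control mouse 1 without the block also gave 2.

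**Figure D2:**
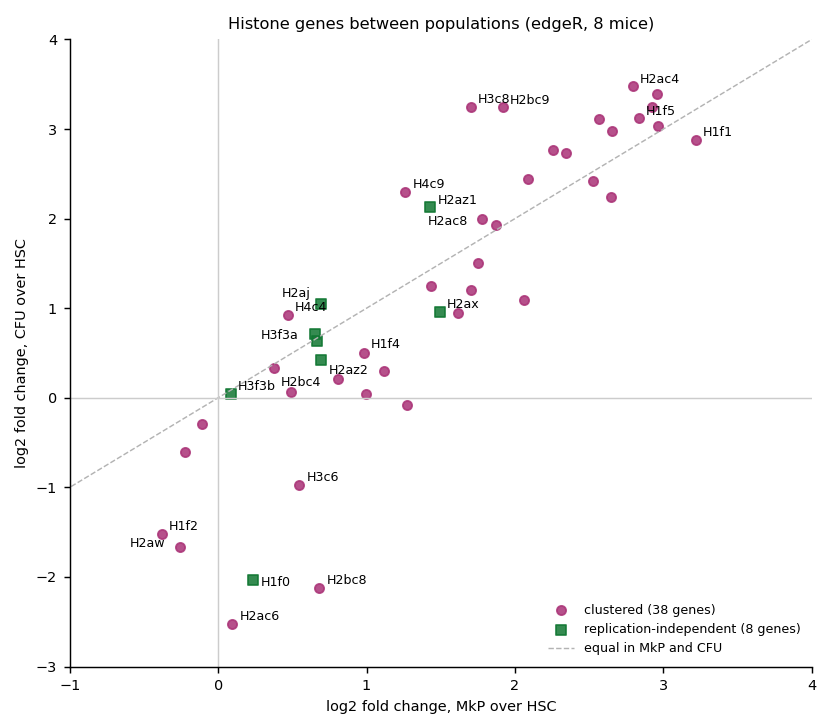
Log2 fold change over HSC in MkP (x axis) and CFU (y axis) of all 46 members, from 1 edgeR fit on 8 mice; circles are clustered genes, squares replication-independent genes, and the dashed line marks equal values. Both axes use the same HSC sums. H2bc8, H2ac6, H1f2, H2aw and H1f0 lie far below the line and below 0 on the y axis, while H1f5, H1f1 and H2ac4 lie near the upper right.

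Of the 8 replication-independent genes, 5 were higher in MkP than in HSC and 0 lower, beside 16.8% and 13.1% of all genes. In CFU, 6 were higher than in HSC and 1 lower (27.7% and 35.8% of all genes), and CFU over MkP gave 2 higher and 3 lower (22.3% and 31.1%), near the share over all genes. Their median log2 fold changes were 0.68, 0.68 and -0.04, against 0.01, -0.27 and -0.25 over all genes. H2az1 encodes the main H2A.Z protein, and lay at 284, 444 and 684 CPM in HSC, at 1854, 1971 and 2296 in CFU and at 1132, 1197 and 1488 in MkP. The 3 populations did not overlap, and its log2 fold change was 2.13 ± 0.12 in CFU over HSC (adjusted p = 3.87e-13, edgeR), 1.43 ± 0.12 in MkP over HSC and 0.70 ± 0.12 in CFU over MkP. H2aj followed the same order, with medians of 86.8, 177 and 135 CPM in HSC, CFU and MkP. H2az2, the second H2A.Z gene, and H2ax, whose protein is phosphorylated at DNA breaks, were highest in MkP instead. H2ax had medians of 61.8 CPM in HSC, 131 in CFU and 195 in MkP, and CFU over MkP was -0.53 ± 0.18 (adjusted p = 0.0149, edgeR).

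The 2 intact H3.3 genes encode the same protein. H3f3a rose over HSC by 0.72 ± 0.12 in CFU (adjusted p = 1.72e-05, edgeR) and by 0.65 ± 0.12 in the MkP sums (adjusted p = 0.000203), from a median of 613 CPM to 1031 and 977. H3f3b lay at 1639, 1996 and 2241 CPM in HSC, at 1807, 1960 and 2420 in CFU and at 1807, 1961 and 2740 in MkP. These ranges overlapped almost fully, and CFU over HSC was 0.04 ± 0.08 (adjusted p = 0.684, edgeR), and without TMM scaling -0.37 (adjusted p = 0.000511). H1f0, the linker variant linked to cells that leave the cycle, lay at 113, 203 and 255 CPM in HSC, at 25.997, 41.4 and 72.9 in CFU and at 189, 211 and 298 in MkP. No CFU sum reached an HSC or MkP sum, and H1f0 fell by 2.04 ± 0.18 against HSC (adjusted p = 4.69e-10, edgeR). The pseudogene H3f3a-ps2 stayed near 1 CPM, with medians of 0.688, 1.08 and 1.07, and its reads may belong to H3f3a.

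**Figure D3:**
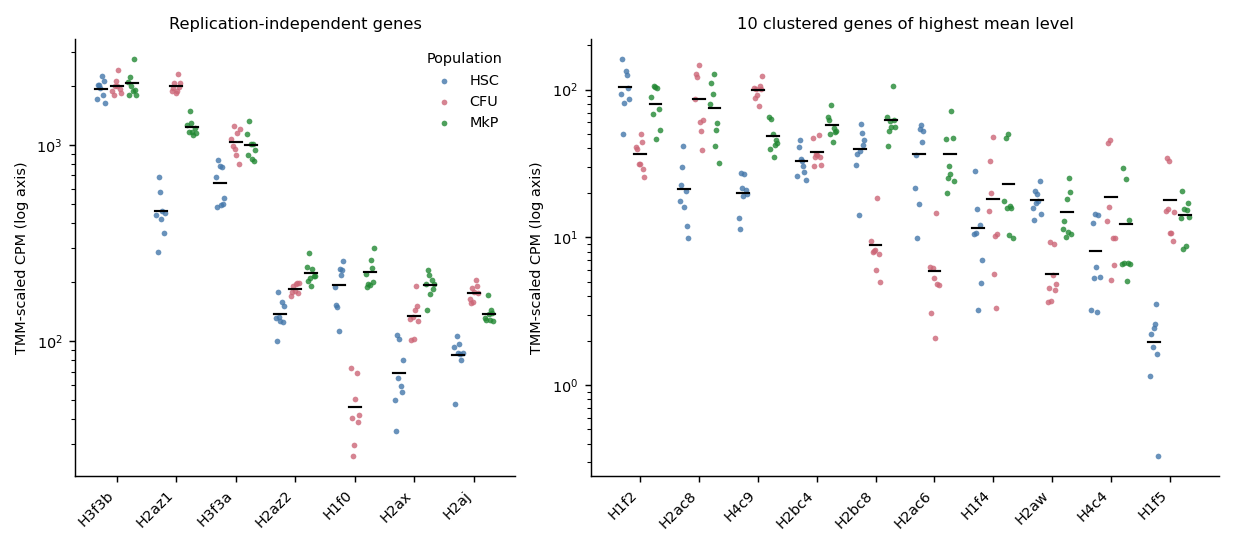
TMM-scaled CPM (log axes) of the 7 replication-independent genes with intact reading frames and of the 10 clustered genes with the highest mean level, in HSC, CFU and MkP; each point is 1 of 8 mice and bars are means. The H3f3b ranges overlap across populations, H2az1 climbs from HSC to MkP to CFU, and H1f0, H1f2, H2bc8, H2ac6 and H2aw are lowest in CFU.

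Genes that serve histone supply were taken as a list of 39. Of these, 24 were higher and 1 lower in MkP than in HSC, and 29 higher and 3 lower in CFU than in HSC, with medians of 0.49 and 0.92. All genes gave 16.8% higher and 13.1% lower in MkP and 27.7% and 35.8% in CFU, with medians of 0.01 and -0.27. In CFU over MkP, 25 were higher and 5 lower, beside 22.3% and 31.1% of all genes, with a median of 0.44 against -0.25. Slbp, the stem-loop binding protein, rose over HSC by 2.25 ± 0.13 in CFU and 1.17 ± 0.13 in MkP. Npat, the coactivator of clustered histone transcription, rose by 0.72 ± 0.13 and 0.40 ± 0.13. The H3-H4 chaperones Asf1b and Nasp rose by 3.03 and 2.82 in CFU and 2.23 and 1.32 in MkP, and Cenpa, the H3 variant of centromeres, by 3.81 and 1.55. Atrx, a remodeller that deposits H3.3, fell by 0.62 ± 0.08 in CFU and by 0.27 ± 0.08 in MkP. Macroh2a1, which encodes an H2A variant, fell by 0.90 ± 0.12 in CFU, and its value in MkP over HSC was 0.19 ± 0.12 (adjusted p = 0.275, edgeR).

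Summed S-phase transcripts (20 genes) were 2274 ± 991 CPM in HSC, 5382 ± 187 in MkP and 10818 ± 431 in CFU, and G2/M transcripts (20 genes) 462 ± 239, 1908 ± 355 and 4342 ± 478. Each of the 40 genes was called higher in MkP and in CFU than in HSC. The mean clustered sum was highest in MkP and thus did not follow the order of these lists. Its MkP sums (391 to 701 CPM) and CFU sums (362 to 623) overlapped, and their order was not tested. Total counts per cell and genes per cell also differed between populations, and the median genes per cell of a mouse ran from 5330 to 6808 for HSC, from 7579 to 8509 for CFU and from 5509 to 7172 for MkP. Differences in depth went with the populations, and their part in the results was not tested beyond the thinned fit above.

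At the level of single cells, thinned to 20000 counts, the median clustered gene was seen in 2.48% of HSC, 6.72% of CFU and 6.97% of MkP, against 70.3%, 91.5% and 86.3% for the median replication-independent gene. Without thinning, the clustered medians were 13.1%, 50.9% and 30.6%, so depth set much of these shares. H2ac8 was seen in 17.9 ± 5.71% of HSC, 60.8 ± 15.3% of CFU and 43.8 ± 7.17% of MkP (SD, n = 8 mice). H2bc8 was seen in 25.5 ± 4.85% of HSC, 9.05 ± 6.14% of CFU and 42.2 ± 6.504% of MkP. H1f2 was seen in 38.1 ± 5.67% of HSC, 33.9 ± 3.98% of CFU and 33.6 ± 4.74% of MkP, and unthinned in 66.01%, 84.1% and 67.8%. Its order between HSC and CFU turned with depth, so no order is read from these shares.

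The share of a gene's counts held by the cells richest in it varied among both clustered and variant genes. In MkP, the 133 cells with most H1f2 held 72.95% of its 2603 thinned counts, and the same number of cells held 56.1% of H2ac8 counts, 21.4% of H2az1 counts and 22.7% of H3f3b counts. In HSC, the top 70 cells held 81.8% of the 291 H2ac8 counts and 32.1% of the 6462 H2az1 counts. In CFU, the top 65 cells held 36.3% of the 919 H2ac8 counts and 54.7% of the 426 H1f2 counts, but 71.2% of the 486 counts of the variant H1f0. Low counts alone raise such shares, so they describe sparsity as well as differences between cells.

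Cells with and without Mki67, a proliferation marker that is no member, were then compared within each population. A cell was positive if it kept at least 1 Mki67 count after thinning to 20000 counts, so a negative cell may still hold Mki67 mRNA. Positive cells were 10.5 ± 8.35% of HSC, 92.6 ± 5.37% of CFU and 40.9 ± 8.84% of MkP (SD, n = 8 mice). Sums were compared in 6 mice for HSC (66 positive and 462 negative cells), 5 for CFU (366 and 43) and 8 for MkP (539 and 785). Members that reached the expression filter numbered 14, 12 and 25, and the levels of these classes are CPM of the thinned counts, with no TMM scaling.

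In MkP, 10 clustered and 3 replication-independent genes were higher in positive cells and 0 lower, beside 5.99% and 2.63% of all genes. The filter can be passed through 1 class alone, so the called share of tested members is not set against these. H2ac8 was 129 ± 48.9 in positive and 33.9 ± 8.85 in negative MkP, higher in 8 of 8 mice, with a log2 fold change of 1.90 ± 0.19 (adjusted p = 6.78e-09, edgeR). H2ax was 336 ± 76.8 in positive and 88.1 ± 9.40 in negative MkP, also higher in 8 of 8 mice (1.96 ± 0.12). H2ac11 and Hist1h2ap, both H2A genes, rose by 2.26 ± 0.39 and 2.13 ± 0.34, and H4c4 and H4c9, both H4 genes, by 2.002 ± 0.36 and 1.54 ± 0.19. H2az1 and H2az2 rose by 0.92 ± 0.08 and 0.85 ± 0.10.

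Other abundant members did not pass the test in MkP. H2bc8, the divergent neighbour of H2ac8, was 72.5 ± 22.8 in positive and 72.8 ± 18.7 in negative cells, a log2 fold change of 0.01 ± 0.18 (adjusted p = 0.992, edgeR). H1f2 was 98.6 ± 40.1 and 99.7 ± 44.2 (0.01 ± 0.24), whereas H1f5 rose by 1.46 ± 0.29. H3c6, an H3 gene, was at 0.00 ± 0.37 and H3f3a at -0.03 ± 0.10. H3f3b was at 0.16 ± 0.10 (adjusted p = 0.378, edgeR), and in the paired fit with the mouse as a replicate block it passed the test (adjusted p = 0.00136, same size). No other replication-independent gene changed its call there, and the count of clustered genes called was again 10, beside 1160 of all 9619 genes.

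In HSC, 2 clustered and 3 replication-independent genes were higher in Mki67-positive cells and 0 lower, beside 3.76% and 1.74% of all genes. H2ac8 was 82.7 ± 19.8 in positive and 12.9 ± 3.90 in negative HSC, higher in 6 of 6 mice (log2 fold change 2.65 ± 0.34, adjusted p = 2.44e-06, edgeR). H2ax, H4c9, H2az1 and H2az2 rose by 2.45 ± 0.26, 1.82 ± 0.40, 1.46 ± 0.13 and 1.08 ± 0.18. H1f2 (-0.42 ± 0.26), H2bc8 (-0.39 ± 0.32) and H2ac6 (-0.57 ± 0.40) did not pass the test. In CFU, 0 members passed edgeR's adjusted threshold, 1 had an unadjusted p under 0.05 (H4c9, 1.03 ± 0.37) and 0 passed DESeq2. All genes gave 0.621% higher, 1.66% lower, 14.5% at the unadjusted p and 4.64% by DESeq2 in CFU, where only 43 negative cells were compared. The differences between populations in this contrast were not tested.

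**Figure D4:**
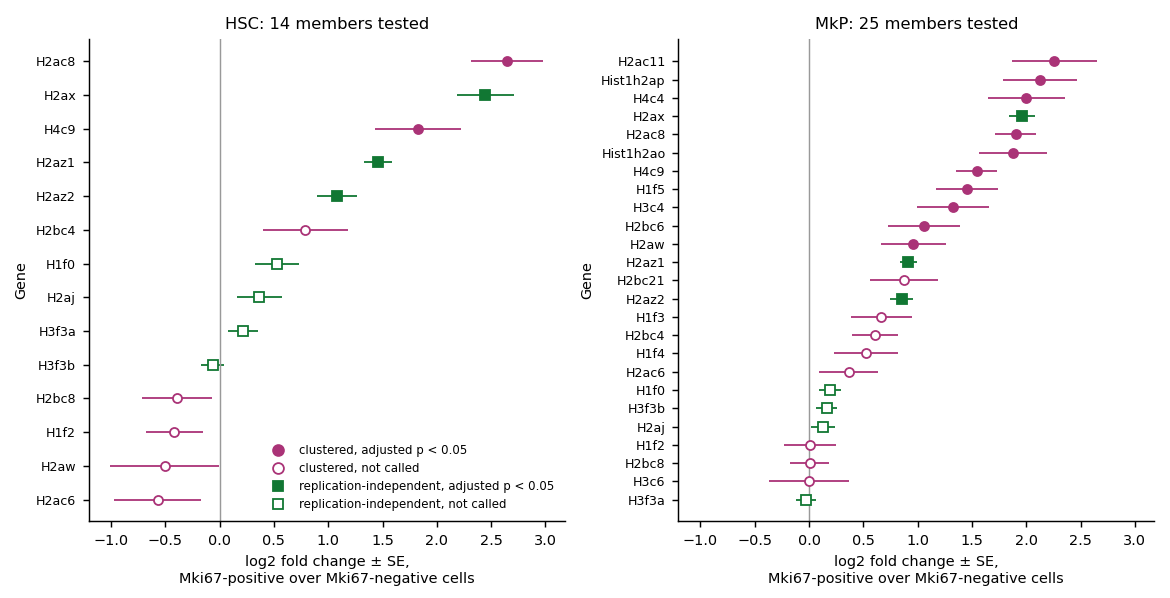
Log2 fold change ± SE between Mki67-positive and Mki67-negative cells for the 14 members tested in HSC (6 mice) and the 25 in MkP (8 mice), sorted by size; filled symbols passed edgeR's adjusted threshold, circles are clustered and squares replication-independent genes. H2ac8, H4c9, H2ax, H2az1 and H2az2 are filled in both panels, and H1f2, H2bc8 and H2ac6 are open in both.

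Across single cells, several members were also set against the G2/M sum. The G2/M list holds Mki67 itself, so these values are not independent of the Mki67 classes above. Within MkP, the median over 8 mice of Spearman's rho between a member and the G2/M sum was 0.66 for H2az1, 0.53 for H2ax, 0.40 for H2ac8 and 0.35 for H4c9, and 0.07 for H1f2, 0.10 for H2bc8 and 0.06 for H3f3b. Against the S-phase sum in MkP it was 0.41 for H2az1, -0.05 for H2ac8 and -0.37 for H1f2. The S-phase values of these genes were 0.37, 0.11 and -0.22 in HSC, and 0.07, 0.23 and 0.08 in CFU. For the clustered sum, rho with the S-phase sum was -0.12 in HSC, 0.22 in CFU and -0.29 in MkP. With the G2/M sum it was -0.015 in HSC, 0.00053 in CFU and 0.36 in MkP, where the mice ran from 0.16 to 0.48. In HSC the G2/M values were 0.35 for H2az1, 0.18 for H2ac8 and -0.11 for H1f2, and in CFU -0.04, 0.08 and -0.13. These are descriptions over 1324, 697 and 647 cells thinned to the same depth, which share libraries within a mouse and are sparse for the clustered genes.

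Platelet depletion was compared with control in each population, 4 mice against 4. No member passed edgeR's adjusted threshold in HSC, CFU or MkP, where 0%, 0% and 0.0108% of all genes did. At an unadjusted p under 0.05, 11 of 46 members differed in HSC (7 higher, 4 lower; 8.56% of all genes), 8 in CFU (1 higher, 7 lower; 11.9%) and 11 in MkP (4 higher, 7 lower; 13.7%). DESeq2 called 4, 6 and 6 members, beside 2.04%, 3.67% and 7.29% of the genes it tested. The depleted and control sums did not overlap for 6, 8 and 3 members, beside 8.09%, 9.96% and 9.32% of all genes. The clustered median was -0.18, -0.02 and -0.10, and in each population the median over all genes was within 0.01 of 0.

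H2ac8 was the member with the lowest p in CFU and MkP. In CFU the control mice had 85.9, 128, 122 and 146 CPM and the depleted mice 60.3, 52.8, 39.1 and 62.3, so every depleted sum lay below every control sum. The log2 fold change was -1.23 ± 0.18, with an adjusted p of 0.175 in edgeR and 2.92e-08 in DESeq2. In MkP the control mice had 80.05, 111, 93.2 and 128 CPM and the depleted mice 41.7, 53.02, 59.3 and 31.97, again apart, at -1.14 ± 0.20 (adjusted p = 0.128 in edgeR, 7.91e-06 in DESeq2). With cells thinned to equal depth, edgeR called H2ac8 in both (-1.36 and -0.98), and the share of all genes called there is not given. In HSC the values were 17.5, 22.4, 30.02 and 41.2 against 15.96, 20.6, 11.99 and 9.96, and these overlapped (-0.94 ± 0.32, adjusted p = 0.472, edgeR).

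Other low values in depleted mice came from the H1 gene H1f4, the H4 gene H4c4 and the H2A genes H2ac4 and Hist1h2ap. H4c4 in CFU was 12.9, 43.2, 15.99 and 45.6 CPM in control and 5.15, 9.95, 6.47 and 9.95 in depleted mice, apart, at -1.96 ± 0.43 (adjusted p = 0.249, edgeR). Control mice 2 and 4 were above control mice 1 and 3 for H4c4 in HSC (12.5 and 14.4 against 3.22 and 5.32) and MkP (29.4 and 24.9 against 6.60 and 6.70) as well, although in HSC depleted mouse 3 reached 14.3. For H1f4 and H2ac4, these 2 mice were the highest of all 8 in each population. H1f4 in CFU was -2.03 ± 0.44 (adjusted p = 0.249, edgeR), Hist1h2ap -1.51 ± 0.30 in CFU (adjusted p = 0.241) with -1.54 ± 0.42 for MkP (adjusted p = 0.192), and H2ac4 -2.31 ± 0.44 in MkP (adjusted p = 0.128). The clustered H2A sum in CFU was 162, 188, 218 and 242 CPM in control and 101, 121, 86.8 and 120 in depleted mice, without overlap. H2ac8 is part of this sum, so the sum is no separate result. The H2ac8 means were 120 and 53.6 CPM, beside 203 and 107 for the sum.

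At an unadjusted p under 0.05, members with higher values in depleted mice numbered 7 in HSC, 1 in CFU and 4 in MkP. H3c6 was 1.48, 5.11, 3.18 and 1.002 CPM in control and 9.60, 20.02, 11.8 and 12.9 in depleted HSC, so the groups were apart, and its log2 fold change was 2.31 ± 0.54 (adjusted p = 0.351 in edgeR, 0.00258 in DESeq2). In MkP it was 8.90, 3.40, 7.10 and 4.33 against 10.3, 20.02, 22.6 and 8.94, also apart (1.39 ± 0.40), and in CFU it was -0.43 ± 0.41 with overlapping values. H2ac6 in HSC was 21.4, 35.9, 9.92 and 16.8 against 54.2, 57.5, 44.2 and 52.8, apart, at 1.28 ± 0.35 (adjusted p = 0.408, edgeR), and H3c4, an H3 gene, was 1.94 ± 0.58 (adjusted p = 0.437). H1f0 in HSC was 190, 154, 149 and 113 against 234, 217, 232 and 255, apart, at 0.61 ± 0.16 (adjusted p = 0.364 in edgeR, 0.0117 in DESeq2). The clustered H3 sum in HSC was 6.36, 8.11, 12.8 and 6.53 in control and 24.9, 39.2, 19.2 and 26.02 in depleted mice. H3c6 (means 2.69 and 13.6 CPM) and H3c4 (2.12 and 8.17) are part of this sum (8.46 and 27.3). Apart from it and clustered H2A in CFU, the clustered family sums overlapped between treatments.

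**Figure D5:**
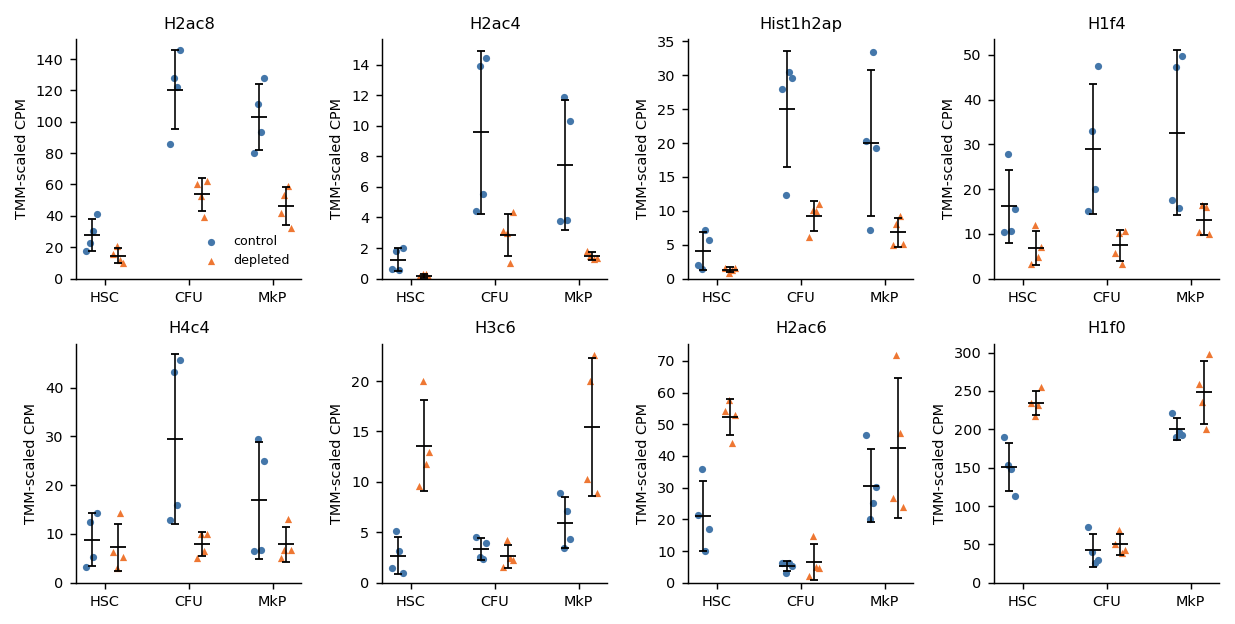
TMM-scaled CPM (linear axes from 0) of 8 members in control (circles) and depleted (triangles) mice of each population, with mean ± SD over 4 mice. H2ac8 is lower in every depleted CFU and MkP sum, H3c6, H2ac6 and H1f0 are higher in every depleted HSC sum, and H1f4, H4c4 and H2ac4 show 2 high control mice.

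An interaction term tested the treatment effects of 2 populations against each other. No member passed edgeR's adjusted threshold for MkP against HSC, CFU against HSC or CFU against MkP, where 0.0144%, 0% and 0% of all genes did. Counts at an unadjusted p under 0.05 were 2, 4 and 1 members (6.05%, 9.05% and 5.89% of all genes), and DESeq2 called 0, 1 and 0 (1.53%, 2.85% and 2.30%). The 1 was H3c6 in CFU against HSC, at -2.69 ± 0.67 in edgeR (adjusted p = 0.234) and -2.72 in DESeq2 (adjusted p = 0.00274). With the mouse as a replicate block, edgeR called 0 in each.

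Proliferation markers are given beside these values. In HSC, all 20 S-phase genes had negative fold changes (median -0.68), of which edgeR called 0 and DESeq2 called 1, with 4 below an unadjusted 0.05, and their sum was 2722 ± 1275 CPM in control and 1827 ± 361 in depleted mice, with overlap. In CFU the G2/M sum was 4155 ± 514 CPM in control and 4528 ± 418 in depleted mice, with overlap, and 16 of 20 G2/M genes had positive fold changes. In MkP the G2/M sum of the control mice was 1979 to 2436 CPM and that of the depleted mice 1383 to 1867, without overlap, and Mki67-positive cells were 47.8 ± 6.31% and 34.1 ± 4.26% of MkP. All 20 G2/M genes had negative fold changes there (median -0.41). Of these, edgeR called 0, DESeq2 called 12 (7.29% of the genes it tested) and 13 were below an unadjusted 0.05 (13.7% of all genes). Within Mki67-positive MkP, H2ac8 was 133, 186, 151 and 196 CPM in control and 87.3, 119, 114 and 48.3 in depleted mice, apart. Within negative MkP it was 32.6, 28.8, 31.2 and 41.4 against 24.3, 39.8, 48.97 and 23.8, overlapping. Within positive CFU it was 74.6, 123, 92.3 and 128 against 52.8, 47.4, 35.3 and 39.9, apart. Of the other members followed within positive cells, H1f4 and H4c4 were apart in CFU, while Hist1h2ap and H2ac4, which were apart over all CFU cells, overlapped there, as did H3c6. In positive MkP, H2ac4 and H3c6 were apart and H1f4, H4c4 and Hist1h2ap overlapped. Median genes per cell were also lower in depleted MkP, at 5509 to 6180 against 6557 to 7172, and in depleted CFU, at 7579 to 8242 against 8301 to 8509. In HSC these medians were 5330 to 5758 in depleted and 5700 to 6808 in control mice, with overlap. The members followed within Mki67 classes were picked by their low treatment p in the same mice, so their being apart there is no separate result. Positive cells were 92.6% of CFU, so their values largely repeat those over all CFU. The share of all genes apart within a class is not given. The values within Mki67 classes are descriptions, and the part of cell cycle and of cell content in the treatment values was not tested.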

How the data were processed

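Single bone marrow cells were profiled by Smart-seq2. The authors deposited 1 matrix of raw counts, in whole reads per gene symbol, with 55401 gene rows and 3070 columns, of which 3069 matched a sample and 1 was not used. Trim Galore 0.5, STAR 2.6.0 and HTSeq 0.6.1 were used, per the submitters' processing notes, while the sources used here give no genome build, annotation or strand setting. Rows sharing a symbol (107 symbols) were added. Wells with at least 20000 counts, 1000 genes and at most 20% mitochondrial counts were kept (2668, with 401 left out).

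Counts were summed per mouse and population, giving 24 sums, with the mouse as the replicate. Doublets were not sought. Tests were edgeR 4.0.16 quasi-likelihood fits with TMM and the default expression filter on all genes, adjusted by Benjamini-Hochberg over all genes tested and called under 0.05. Population contrasts used all 24 sums with treatment as a term, treatment used the 8 sums of 1 population, and the interaction used all 6 groups. Mki67 classes used cells thinned to 20000 counts and mice with at least 5 cells in both classes. Alternatives were DESeq2 1.42.0, no TMM, no expression filter, thinning, other well filters, other minimums for membership, a replicate block and leaving out each mouse. Leaving out mice in the interaction, DESeq2 and no TMM for the Mki67 classes, and the alternatives for summed levels were chosen after seeing the data. The same mouse gave all 3 populations, so the block is a real pairing. Deviations from group means correlated within mice at 0.0392 to 0.0959 between HSC and CFU, 0.0471 to 0.159 between HSC and MkP and 0.0975 to 0.199 between CFU and MkP.

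Levels are CPM scaled by TMM, and per-kilobase values use the union of GENCODE M21 exons (46 of 46 members had a length). The lengths of 13 clustered genes exceed 1 kb. Promoters came from RefSeq (GRCm38.p6). No coordinates are given for matrix genes beyond these. The members, the lists and the named genes were chosen with earlier results of these data known. Named were every replication-independent gene, the 10 clustered genes of highest mean CPM, the 4 largest called changes per direction and population contrast without overlap, and the 4 lowest p per treatment comparison. Other members named in counts or as DESeq2 calls were named after their values were seen. Fits were tested on simulated data.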

Additional observations from a re-analysis of the deposited data

Results flagged for a closer look

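In 14 of 210 groups of 4 mice (named members and summed levels), 1 mouse stood apart from the other 3 by Dixon's ratio at the 95% level, and chance alone flags about 1 in 20 groups. Depleted mouse 2 was highest for H3f3b in MkP (2740 CPM, the others 1807 to 1910), for H3f3a in HSC (773, the others 494 to 538), for H2bc8 in MkP (105, the others 56.1 to 61.9) and for the summed replication-independent genes in MkP (5699, the others 4653 to 4747). Depleted mouse 3 was lowest for H2az2 in CFU (176 CPM, the others 195 to 198) and for H3c4 in HSC (3.33, the others 9.28 to 10.4). Depleted mouse 1 was highest for H2bc12 in HSC (0.869 CPM, the others 0.0138 to 0.149) and lowest for H2bc9 in MkP (0.930, the others 2.69 to 3.04).

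Among control mice, mouse 1 was highest in CFU for H2bc8 (9.47 CPM, the others 7.94 to 8.17) and for H3c4 (11.9, the others 6.499 to 7.19). Control mouse 2 was lowest for Hist1h2ap in CFU (12.3 CPM, the others 27.9 to 30.5). Control mouse 3 was highest for H2aw in CFU (9.27 CPM, the others 3.63 to 4.56) and for H2bc11 in HSC (1.39, the others 0.377 to 0.538). Control mouse 4 was highest for H2bc12 in CFU (2.94 CPM, the others 0.985 to 1.04).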

How the results depend on the processing

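Of the counts and levels that answer a comparison, 638 alternative values stayed within 1.5 times or within 1 SD and 40 moved, and in no case was the cause tested. Calls between populations: thinning to 20000 counts gave 15 clustered genes higher in MkP and 10 higher in CFU than in HSC, and 1 replication-independent gene higher in CFU than in MkP. Without TMM, which moves the all-gene median from -0.27 to -0.68 in CFU over HSC and from -0.25 to -0.57 in CFU over MkP, and the share of calls that are higher from 43.6% to 30.8% and from 41.7% to 26.9%, there were 2 replication-independent genes lower in CFU than HSC, and 1 higher and 5 lower in CFU than MkP. Clustered genes higher in CFU than in MkP numbered 3 with these populations fitted alone, 2 in DESeq2, 2 with the replicate block (paired by mouse) and 1 to 2 with each mouse left out. Clustered genes lower in MkP than HSC were 0 to 1 with each mouse left out, 1 without control mouse 3. With the block, 27, 28 and 10 clustered and 6, 7 and 5 replication-independent genes were called in MkP over HSC, CFU over HSC and CFU over MkP, and 0 interactions. Beside these, 6498, 13155 and 11296 of all 20852 genes were called between the populations.

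Treatment calls of clustered members in HSC were 3 in DESeq2, 1 with 6 groups in 1 fit (H3c6) and 1 thinned (H2ac6), with 1 replication-independent member in DESeq2 (H1f0). In CFU and in MkP they were 6 in DESeq2 and 2 thinned. The share of all genes called is not given for the fit of 6 groups or for any alternative that thinned cells. DESeq2 called 1 interaction (CFU against HSC). Thinning to 100000 counts instead of 20000 gave 4 clustered genes higher in Mki67-positive HSC and 17 in MkP. It also raised the median share of cells with a clustered gene to 5.95% for HSC, 20.1% for CFU and 14.7% for MkP (unthinned 13.1%, 50.9% and 30.6%), and with a replication-independent gene to 87.5%, 99.4% and 95.6% (unthinned 92.96%, 99.7% and 97.6%). The summed replication-independent level was 3947 CPM in HSC and 4698 in CFU without TMM, and 3942 and 4744 thinned. Clustered H2B in HSC was 108 thinned, and clustered H4 in CFU 109 without TMM.

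Among single genes, 1171 values kept their sign and their side of the threshold, 35 lost the threshold, 19 gained it and 18 turned in sign, the last from 4 uncalled values. H3f3b in CFU over HSC was -0.066 in DESeq2, -0.19 thinned, -0.37 without TMM and -0.017 to 0.074 with each mouse left out. Between Mki67 classes, H2bc8 in HSC was 0.28 at 100000 counts. H1f2 in MkP was -0.013 at 100000 counts, -0.012 without TMM and -0.11 to 0.25 with each mouse left out. H2bc8 in MkP was -0.017 without TMM and -0.076 to 0.13. With a membership minimum of 0.5 or 2 CPM there were 58 or 37 members, 47 or 30 of them clustered.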
